A study of Rattus norvegicus with 6 samples.

Results

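The sodium pump beta subunit genes Atp1b1, Atp1b2 and Atp1b3, the plasma membrane calcium pump genes Atp2b1 and Atp2b2 and the calcium pump gene Atp2a2 of the endoplasmic reticulum were examined in the substantia nigra pars compacta. The members were taken as every array probe whose accession, without its version, is a rat RefSeq transcript of 1 of these 6 genes. This found 1 probe each for 5 of the 6, out of 4013 genes that could be named on the array. No probe carried a listed transcript of Atp2a2, which was not analysed here. The probes were GE20186 (Atp1b1), GE21654 (Atp1b2), GE20053 (Atp1b3), GE19573 (Atp2b1) and GE1289821 (Atp2b2). The choice used no measured value, although it was made with earlier results of these arrays known.

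The rats were adult male Sprague Dawley animals, 5 months old, given minipumps under the skin during ketamine and xylazine anaesthesia. In 3 rats (numbers 16, 13 and 9) the pump released 0.5 mg/kg of rotenone per day for 28 days; this pesticide from plant roots blocks complex I of the respiratory chain. In the other 3 (numbers 11, 7 and 1) it released the solvent alone, a mixture of dimethylsulfoxide and polyethylene glycol with a non-ionic surfactant, which the rotenone rats received too. Laser capture isolated the region. Each rat supplied the RNA for a single one-colour CodeLink array, so n = 3 rats per group.

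The sodium pump exchanges sodium for potassium across the plasma membrane at the cost of ATP and so restores the gradients that each action potential draws on. It needs a catalytic alpha subunit and a beta subunit, a glycoprotein that brings the alpha subunit to the membrane and tunes its affinity for potassium. Plasma membrane calcium pumps push calcium out of the cell, and the related pump of the endoplasmic reticulum returns it to the store. Neurons of the nigra pars compacta fire on their own and take up calcium as they do so, and both kinds of pump are counted among the large consumers of ATP in neurons.

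None of the 5 genes passed the test between rotenone and solvent. The means of Atp1b3, Atp2b1, Atp2b2 and Atp1b2 were lower with rotenone, by 0.58, 0.32, 0.36 and 0.17 on the log2 scale, and that of Atp1b1 was 0.21 higher. After normalization, all 3 rotenone values of Atp1b3 and Atp2b2 lay below all 3 solvent values. From the median in place of the mean of each spot this held for Atp1b3 but not for Atp2b2. With net intensity scaled to about the array median, Atp1b3 was again apart. Atp2b2 overlapped on that scale, at 89.0 in rotenone rat 13 and 84.9 in solvent rat 1. There the Atp1b1 values with rotenone (749 to 1024) were all above those with solvent (564 to 658). After normalization solvent rat 7 and rotenone rat 16 had the same Atp1b1 value. The share of all probes apart on the scaled intensities was not counted. Over all 16708 probes tested, limma's moderated test called 0% after Benjamini-Hochberg adjustment at 0.05, with 0.895 as its smallest adjusted p. Before adjustment, 825 probes (4.94%) had a p below 0.05, 2.95% of all with a lower mean, against 1 of the 5 genes here (Atp1b3). Further, the ordinary test without moderation also called 0 after adjustment, with 741 below an unadjusted 0.05. Groups without overlap and lower with rotenone made up 4.89% of the probes tested, against 2 of the 5 genes here. A mean that was lower with rotenone was found for 48.4% of probes, against 4 of these 5 genes. The median difference was -0.32 over the 5 genes and 0.00892 over all probes. So small a set, chosen with results known, allows no test of either share.

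The array of rotenone rat 16 stood apart from the other 5. Its mean correlation with the others across probes was 0.931, against 0.956 to 0.964, its first principal component score was 46.8, where the others lay between -18.6 and -0.48, and 44.2% of its probes were above background, against 48.6% to 51.5%. Of the 5 genes, 3 had their lowest value in this rat. The differences of the 5 genes are therefore also given without it. Of 9 dopamine neuron markers, 7 were above background on all 6 arrays, among them Th, Slc6a3 and Ddc. Nr4a2 was above background on 5 arrays and Pitx3 on 3.

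**Figure D1:**
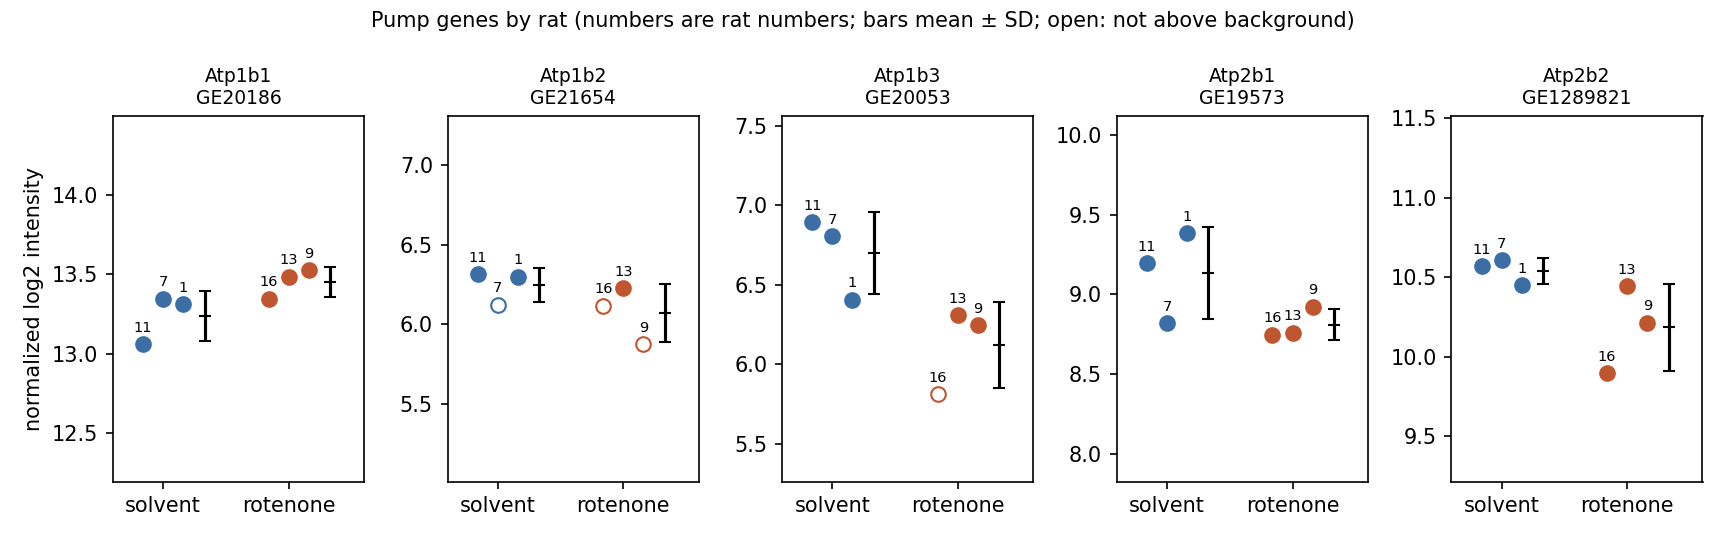
Normalized log2 intensity (vertical axis, the same span in each panel) of the 5 genes in the 3 solvent and 3 rotenone rats, each point 1 rat with its number, with the group mean ± SD beside it; open points were not above background. The groups are apart for Atp1b3 and Atp2b2, and rotenone rat 16 is the lowest point for Atp1b3, Atp2b1 and Atp2b2.

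Atp1b1 encodes the beta 1 subunit, the beta form that neurons mainly use. Its net intensity, the spot mean less the local background on a linear scale, was 8276, 10573 and 10052 in solvent rats 11, 7 and 1. With rotenone it was 12000 (rat 16), 11101 (rat 13) and 10994 (rat 9). On this raw scale, not adjusted for array brightness, the rotenone rats were all above the solvent rats. How many of all probes were apart on it was not counted. After background correction and normalization the log2 intensities were 13.06, 13.34 and 13.31 with solvent and 13.34, 13.49 and 13.52 with rotenone, and solvent rat 7 and rotenone rat 16 had the same value. The difference was 0.21 ± 0.16 (SE), a 1.16-fold higher mean, with a 95% interval from -0.15 to 0.58 and an adjusted p of 0.895 in limma. Leaving out rats moved it from 0.12, when solvent rat 11 was absent, to 0.27, when solvent rat 7 was. Without rotenone rat 16 it was 0.27.

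The spot of Atp1b1 was uneven. Its mean was 3.78 times its median in solvent rat 11, 2.29 times in rotenone rat 13, 1.98 times in rotenone rat 9 and 1.96 times in solvent rat 1. In solvent rat 7 and rotenone rat 16 the ratio was 1.22 and 0.989. Such spots were usual among the brightest: of spots with a net intensity over 5000, between 45.5% and 61.4% per array had a mean over 1.5 times the median, against 0.204% to 0.337% of all probes. With the spot median used in place of the mean, a processing chosen after these values were seen, the log2 values were 11.18, 12.92 and 12.20 with solvent and 14.22, 12.42 and 12.50 with rotenone. The difference was then 0.95, with an unadjusted p of 0.102 and an adjusted p of 0.900 in limma, and the groups overlapped. Rotenone rat 16 was the highest, while rotenone rats 13 and 9 lay within the solvent range. No fit from the spot median left rat 16 out. The size of the Atp1b1 difference thus depends on how the spot is summarised, while its direction was the same both ways. From the spot mean, the size also moved with the normalization. It was 0.33 with median scaling and 0.24 with cyclic loess in place of quantile normalization.

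**Figure D2:**
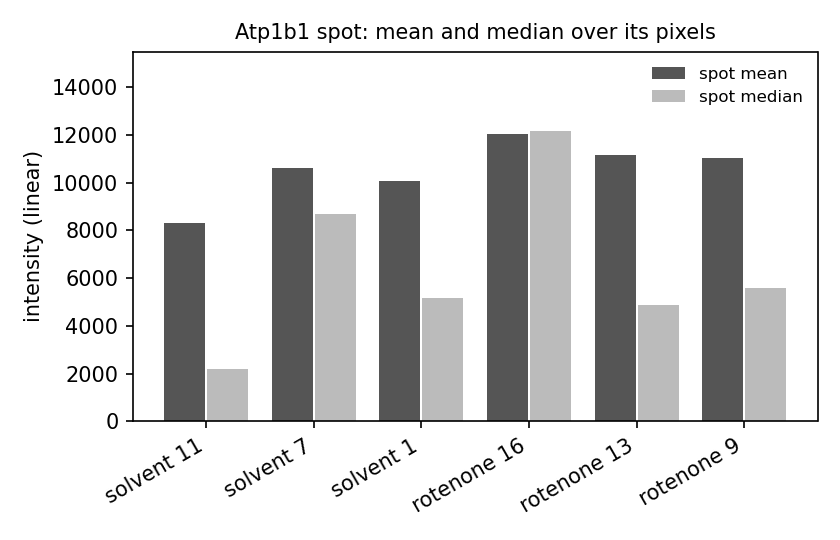
Mean (dark bars) and median (light bars) intensity of the Atp1b1 spot on each of the 6 arrays, on a linear axis that starts at 0, with no background removed. The means range from 8316 to 12043, while the medians range from 2203 in solvent rat 11 to 12179 in rotenone rat 16.

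Atp1b2 encodes the beta 2 subunit, first known as an adhesion molecule on glia. Its probe was dim and exceeded background in 2 solvent rats and 1 rotenone rat. Net intensities were 24.6, 15.3 and 26.8 in solvent rats 11, 7 and 1 and 11.2, 19.7 and 2.77 in rotenone rats 16, 13 and 9. The groups overlapped, since rotenone rat 13 was above solvent rat 7. The log2 means were 6.25 ± 0.11 in the solvent group and 6.07 ± 0.18 in the rotenone group (SD, n = 3 each), a difference of -0.17 (95% interval -0.55 to 0.20; adjusted p 0.904 in limma). It was -0.07 without rotenone rat 9, the lowest value, and -0.20 without rotenone rat 16. Here too the size depended on the background correction, at -0.34 with an offset of 16 and -1.11 with plain subtraction and a floor of 1. This was also the 1 gene of the 5 that could still be tested when spots marked by the scanner were left out, at a difference of -0.22 and an adjusted p of 0.876.

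Atp1b3 encodes the beta 3 subunit, which is found in many tissues. Net intensities were 65.5, 61.4 and 33.4 in solvent rats 11, 7 and 1, and 24.5 and 18.8 in rotenone rats 13 and 9. In rotenone rat 16 the spot was no brighter than its surroundings (-0.0769) and was marked as near background. All 3 solvent rats were above all 3 rotenone rats, and solvent rat 1 lay closer to rotenone rats 13 and 9 than to the other solvent rats. The log2 means were 6.70 ± 0.26 in the solvent group and 6.12 ± 0.27 in the rotenone group (SD, n = 3 each).

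The Atp1b3 difference was -0.58 ± 0.20 (SE), 1.49-fold lower in the mean, with a 95% interval from -1.03 to -0.13. Its unadjusted p in limma was 0.0163 and its adjusted p 0.895. The exact permutation test over rats gave a two-sided p of 0.1, the smallest that 3 rats against 3 allow. Of all probes tested, 1.62% had a lower difference. Without rotenone rat 16 it was -0.42 (unadjusted p 0.0538), and with each rat left out in turn it lay between -0.73 (without solvent rat 1) and -0.42. The size depended on the background correction: an offset of 16 in place of 50 gave -0.999 and plain subtraction with a floor of 1 gave -2.59, with adjusted p values of 0.901 and 0.898. From the spot median it was -0.49, and the groups were still apart.

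Atp2b1 encodes the plasma membrane calcium pump that nearly all cells carry. Net intensities were 530, 425 and 668 in solvent rats 11, 7 and 1 and 323, 384 and 418 in rotenone rats 16, 13 and 9. On this linear scale every rotenone rat was below every solvent rat, though solvent rat 7 and rotenone rat 9 lay close together. After normalization the log2 values were 9.20, 8.82 and 9.38 with solvent and 8.75, 8.76 and 8.92 with rotenone, so that rotenone rat 9 was above solvent rat 7. The difference was -0.32 ± 0.19 (SE), 1.25-fold lower in the mean, with an interval from -0.73 to 0.09 and an adjusted p of 0.895 in limma. It was -0.29 without rotenone rat 16, -0.20 without solvent rat 1 and -0.48 without solvent rat 7. The array of solvent rat 7 carries an earlier date in its file header than the other 5, so that within the later date the difference was -0.48 (unadjusted p 0.0341 and adjusted p 1.00 in limma).

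Atp2b2 encodes a fast calcium pump found mainly in neurons and hair cells. Net intensities were 1433, 1606 and 1418 in solvent rats 11, 7 and 1 and 826, 1318 and 1111 in rotenone rats 16, 13 and 9. On this linear scale, not adjusted for array brightness, all solvent rats were above all rotenone rats. The share of all probes apart in this way was not counted. After normalization the gap between the groups was narrow: solvent rat 1 stood at 10.45 and rotenone rat 13 at 10.44, while rotenone rat 16 stood at 9.90. The log2 means were 10.54 ± 0.08 in the solvent group and 10.18 ± 0.27 in the rotenone group (SD, n = 3 each).

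The Atp2b2 difference was -0.36 ± 0.18 (SE), 1.28-fold lower in the mean, with an interval from -0.76 to 0.05. The unadjusted p in limma was 0.0775 and the adjusted p 0.895, and the exact permutation p was 0.1. Of all probes tested, 7.68% had a lower difference. Without rotenone rat 16 it was -0.21 (unadjusted p 0.221), and without rotenone rat 13 it was -0.49. From the spot median it was -0.22, and the groups overlapped, with rotenone rat 13 (10.66) above solvent rat 7 (10.61).

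**Figure D3:**
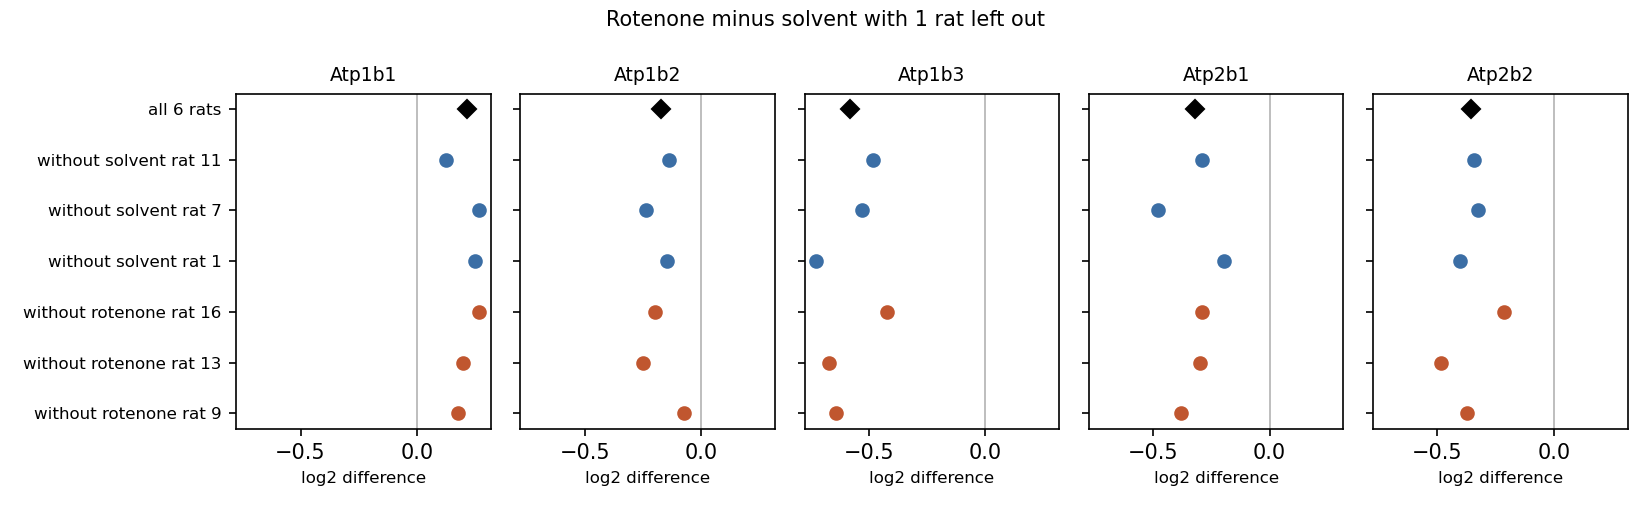
Difference between rotenone and solvent (log2) for the 5 genes with all 6 rats (diamonds) and with each rat left out (circles; blue, a solvent rat; orange, a rotenone rat). No point crosses 0; Atp2b2 moves from -0.36 to -0.21 without rotenone rat 16, and Atp2b1 from -0.32 to -0.20 without solvent rat 1.

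Markers of neurons in general also lay low in rotenone rat 16, which had the lowest Atp1b3, Atp2b1 and Atp2b2 values. Atp1b1 stood at its mean over the 6 arrays there. In that rat the median deviation from the mean of the 6 arrays was -0.60 for the neuron markers. In the other marker lists it ran from -0.43 (astrocytes) to 0.56 (choroid plexus and meninges, 1 gene), with -0.35 for endothelium and pericytes and -0.11 for dopamine neurons. Of 11 markers of neurons in general 7 were measured. All 7 had a lower mean with rotenone (median difference -0.36), against 48.4% of all probes. Before adjustment, 3 of the 7 had a p below 0.05 in limma with a lower mean, against 2.95% of all probes. Groups were apart and lower for 2 of the 7, against 4.89% of all probes, and 0 passed the adjusted test. Their mean log2 level was 8.65 to 8.96 in the solvent rats and 7.95, 8.64 and 8.71 in rotenone rats 16, 13 and 9. Without rat 16 the median difference was -0.03 over these neuron markers and -0.21 over the 5 pump genes. The 9 dopamine neuron markers, all measured, had mean levels of 10.29 to 10.47 with solvent and 10.05 to 10.38 with rotenone, and a median difference of -0.000638 (-0.16 without rat 16). They went both ways, 5 lower and 4 higher. Differences reached from -0.79 for Nr4a2 (unadjusted p 0.0343 and adjusted p 0.895 in limma) and -0.54 for Slc18a2 up to 0.23 for Drd2. Groups were apart and lower for 1 of the 9, Slc6a3 (-0.20), against 4.89% of all probes. For astrocytes (6 of 8 markers measured) the mean level was 10.38 to 10.49 with solvent and 10.07, 10.64 and 10.48 in rotenone rats 16, 13 and 9. For oligodendrocytes (6 of 8 measured) it was 9.15 to 9.80 with solvent and 9.18 to 9.42 with rotenone. For microglia and macrophages (3 of 6 measured) it was 8.11 to 8.67 and 8.09 to 8.71. The part of cell makeup in the pump differences was not tested. In tissue samples such as these, fewer cells of a type and less RNA per cell cannot be told apart.

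Other genes of the pathway are described from fixed lists. Of 19 sodium pump genes, subunits and modulators, 12 were named on the array and 10 were measured, 3 with higher and 7 with lower means and a median difference of -0.18. Of these 10, 0 passed the adjusted test. Atp1b3 alone, already counted among the 5 genes above, had an unadjusted p below 0.05 in limma. Over all probes tested, 48.4% had a lower mean and 4.94% had an unadjusted p below 0.05. The median was -0.07 without rotenone rat 9 and -0.08 without solvent rat 1. Among the FXYD proteins, small membrane proteins that modulate the pump, Fxyd3 differed by -0.34 ± 0.18 (SE) and Fxyd5 by -0.36 ± 0.27. Fxyd5 was at -0.11 without solvent rat 1 and -0.20 without rotenone rat 9, and plain subtraction put Fxyd3 at -0.94. Fxyd3 was above background on 3 solvent arrays and 1 rotenone array. Both groups overlapped, and neither gene passed the test.

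Of 17 genes of calcium pumps and exchangers, 10 were named and 8 measured, 3 with higher and 5 with lower means and a median difference of -0.15. Of these 8, 0 passed the adjusted test, and 0 had an unadjusted p below 0.05, against 4.94% of all probes. Lower means made up 48.4% of all probes. The median was -0.02 without solvent rat 11. Slc24a2, a potassium-dependent sodium-calcium exchanger of neurons, differed by -0.37 ± 0.27 (SE) and exceeded background in 2 solvent rats and 1 rotenone rat. This ranged from -0.63 (without solvent rat 11) to -0.20 (without solvent rat 1), and was -1.40 with plain subtraction. Atp2a1, the reticulum calcium pump best known from fast muscle, differed by 0.27 ± 0.21, by 0.05 without rotenone rat 16 and by 0.42 without rotenone rat 13. Phospholamban (Pln), an inhibitor of the Atp2a2 pump, differed by 0.36 ± 0.38, and by -0.06 without rotenone rat 13, where it reached 8.22, and by 0.09 without solvent rat 11 and 0.69 without solvent rat 1. The sodium-calcium exchanger Slc8a1 differed by -0.18 (GE20840) and -0.02 (GE22172), both near background. The first was -0.04 without solvent rat 11, -0.07 without rotenone rat 13 and -0.92 with plain subtraction. Slc8a2 was too dim to enter the test.

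**Figure D4:**
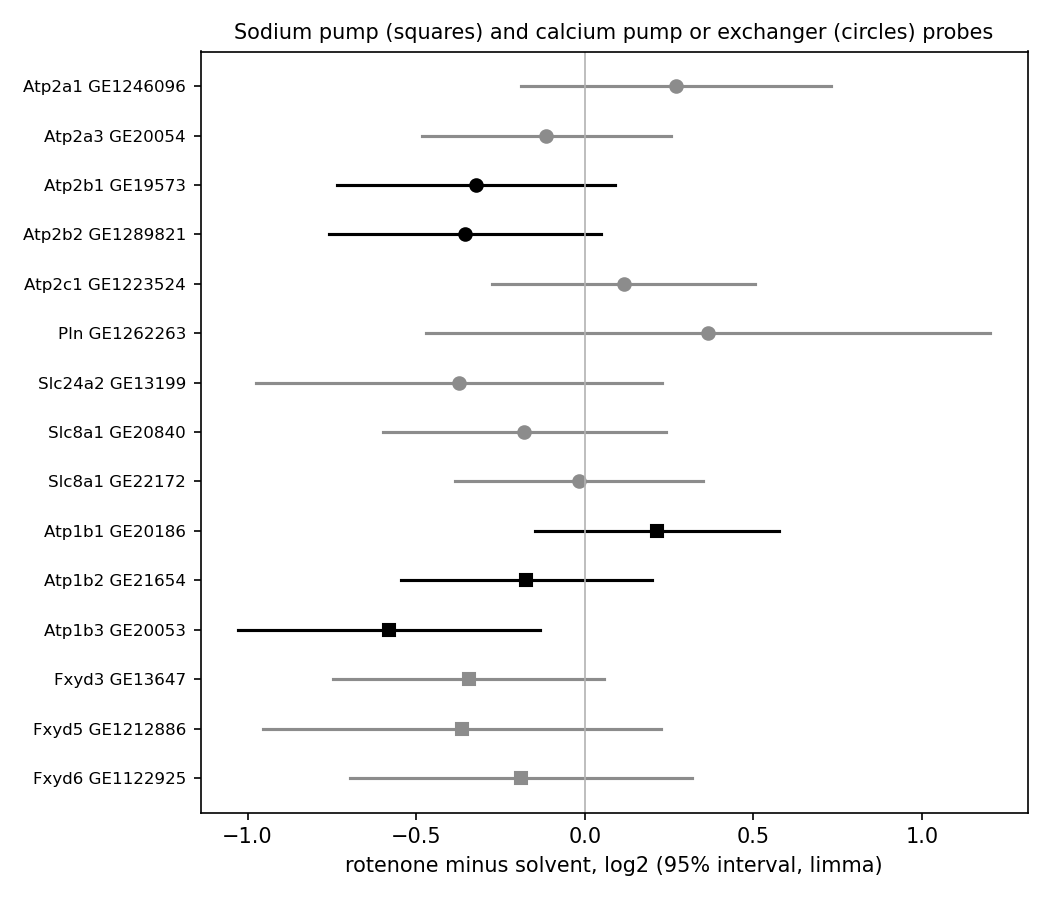
Difference between rotenone and solvent (log2, points) with limma's 95% interval (lines) for tested probes of the sodium pump (squares) and calcium pump and exchanger (circles) lists that are reported; the 5 genes the text leads with are black, the others grey. Among the probes drawn, only the interval of Atp1b3 (-1.03 to -0.13) leaves out 0, and this interval is not adjusted for the number of probes.

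The 5 genes did not vary alike over the 6 arrays, which also share their normalization. Atp1b3 and Atp2b2 had a Pearson r of 0.930 with each other (n = 6 arrays). Atp1b1 was inversely correlated with the others, with r between -0.68 (Atp1b2) and -0.35 (Atp2b2). Among 1710 other named genes above background on all arrays, those with the pattern most like Atp1b3 were Aldh2 (r = 0.990) and Bud31 (r = 0.980), and those most like Atp2b2 were Lxn and Hspa5 (r = 0.987 for both). Most like Atp2b1 were Adgrl1 (0.969) and Atrn (0.960), most like Atp1b1 were Tac1 (0.946) and Fcgrt (0.937), and most like Atp1b2 were Nob1 (0.949) and Cyb5b (0.913). Over so few arrays high values arise easily, and r was over 0.9 for 5.44% of these genes with Atp2b2 and for 2.87% with Atp1b3. The share was smaller with Atp2b1 (0.819%), Atp1b1 (0.234%) and Atp1b2 (0.175%).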

How the data were processed

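Total RNA (2 µg per rat) was amplified, labelled with biotin and hybridised to 1 array per rat, per the labels' protocols. The deposited scanner files give linear intensity values for the spot and its local background, and the authors' deposited value table holds net intensity scaled to about the array median. Its column of solvent rat 7 equalled the scanner file at 0.898% of probes (tolerance 1e-04), against 100% for the other columns, so it was used only as an alternative. The sources used here do not name the scanner software.

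Of 33849 probes, 4675 were named through RefSeq transcripts (assembly GRCr8), without coordinates. Normexp background correction (offset 50, which draws low values together), removal of control spots, log2 and quantile normalization were followed by limma 3.58.1 (R 4.3.3), with two-sided p values adjusted by Benjamini-Hochberg. A probe was tested if at least 3 of 6 arrays had it unmasked and above background by the scanner mark. Spots marked irregular were kept. Rat numbers pair no samples. Each array is 1 rat, so the precision is limited by how many arrays there are. The fit was tested on simulated data. Of each pathway list the 3 non-members with the lowest p could be named, with fixed pump genes, and some of these are not reported here. The members and lists were chosen with earlier results of these data known.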

Additional observations from a re-analysis of the deposited data

How the results depend on the processing

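Over the alternatives that can move them, the differences of the 5 pump genes kept their direction in 64 of 66 values. None passed an adjusted p of 0.05 in any that gives one. All 66 values come from the same rats, many from fits with 1 rat left out, so they are not independent. With marked spots left out only Atp1b2 could be tested, and with all 6 arrays above background Atp1b2 and Atp1b3 could not. The 2 reversals arose in the value table as deposited: Atp2b1 at 2.12 and Atp2b2 at 3.16. Its column of solvent rat 7 did not follow the scanner file over the same probes (r = -0.00587). With that column restored from the scanner file they were -0.28 and -0.24. The directions kept in the table as deposited, for Atp1b1 (4.13), Atp1b2 (-2.59) and Atp1b3 (-0.67), rest on the same column. The table as deposited also reversed Atp6v0a1 (2.86), Atp6v1f (1.86), Calm3 (1.19), Fxyd5 (0.91), Gamt (1.51) and Slc8a1 probe GE22172 (0.42). Its list medians were 1.30 (calcium pumps and exchangers), 1.41 (calcium stores and binding) and -0.0848 (phosphocreatine). They were 0.39 for the sodium pump and 2.16 for the vacuolar proton pump. Near-zero differences also reversed: Slc8a1 GE22172 was 0.0165 with the header date as a block, 0.0615 from the spot median, and between -0.10 and 0.0579 with a rat left out (0.0327, 0.0165 and 0.0579 without solvent rat 11, solvent rat 7 and rotenone rat 9). Pln was -0.0560 without rotenone rat 13, the lowest of a range that reached 0.69 with a rat left out.

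Subtraction with a floor of 1 and the restored table, which both lack the offset, gave medians of -0.33 and -0.34 for the sodium pump list and -0.85 and -0.82 for phosphocreatine. With probes above background on all 6 arrays (fewer genes) the sodium pump median was -0.0463 and the calcium pump median 0.000922. With a rat left out these medians lay between -0.26 and -0.0662 and between -0.20 and -0.0213. Over all probes the adjusted calls were 2 with marked spots left out, 1 from the spot median and 0 to 3 with a rat left out (3 without solvent rat 1); the cause was not tested. No paired analysis was possible because no rat number occurs in both groups. Atp1b2 and Atp1b3, near background, are limited by signal.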

Other observations

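Other ATP-dependent pumps and the genes that buffer ATP were measured in part. Of 22 genes of the vacuolar proton pump, which acidifies lysosomes and synaptic vesicles, 6 were named and measured, 2 with higher and 4 with lower means, at a median of -0.19. A lower mean was found for 48.4% of all probes tested. The subunit gene Atp6v1f differed by -0.61 ± 0.36 (SE). Without rotenone rat 16 this was -0.15, with single other rats left out it lay between -0.94 and -0.40, and in that rat it stood at 9.17 against 10.45 to 11.13 in the solvent rats. The list's median was -0.00824 without that rat. Atp6v0a1 differed by -0.21 ± 0.21 and Atp6v0c by 0.20 ± 0.19, and without rat 16 they were at -0.0441 and 0.00898. Atp6v0a1 was at -0.0792 without solvent rat 1. Of 21 other P-type ATPase genes, the copper pump gene Atp7b alone was measured, near background, at -0.10 (-0.12 without rat 16; -0.0421 and -0.0662 without rotenone rat 13 and solvent rat 1; -0.45 with plain subtraction).

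Of 13 phosphocreatine and adenylate kinase genes, 9 were named and 5 measured. All 5 had lower means with rotenone, against 48.4% of all probes tested. Their median was -0.46 (-0.26 without rotenone rat 16), with 0 past the adjusted test. Groups were apart and lower for 2 of the 5, against 4.89% of all probes. An unadjusted p below 0.05 with a lower mean was found for 2 of the 5, against 2.95%. These shares were not tested. Gamt, the last enzyme of creatine synthesis, differed by -0.65 ± 0.25 (SE) and its groups did not overlap (8.46, 8.60 and 8.17 with solvent, 7.16, 8.01 and 8.10 with rotenone). The adenylate kinase gene Ak1 differed by -0.55 ± 0.23 and the creatine transporter gene Slc6a8 by -0.46 ± 0.23. In limma the unadjusted p was 0.0274 for Gamt, 0.0366 for Ak1 and 0.0708 for Slc6a8, each with an adjusted p of 0.895. When rotenone rat 16 was left out, they differed by -0.35, -0.33 and -0.26. Slc6a8 was at -0.72 without rotenone rat 9, and Ak1 at -1.37 with plain subtraction. The Ak1 spot of rotenone rat 16 was marked near background, at a net intensity of 8.75.

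Of 19 genes of calcium stores and binding, 10 were named and 8 measured, 4 with higher and 4 with lower means (median 0.00433). The calmodulin gene Calm3 differed by -0.45 ± 0.22 (SE) and the calcium binding protein gene Calb2 by 0.39 ± 0.26. Without rotenone rat 16 these were -0.32 and 0.10. Calb2 was at 0.68 without rotenone rat 13, and Calm3 at -0.79 from the spot median. Markers of GABA neurons (3 of 3 measured) had a median difference of -0.03 (-0.04 without rat 16). Of these, Gad2 was apart and lower at -0.41 (unadjusted p 0.0401 and adjusted p 0.895 in limma), against 4.89% of all probes. It was above background on 3 arrays. Gad1 was at -0.03 and Slc32a1 at 0.13. For endothelium and pericytes (3 of 7) the median was -0.13, and 0.11 without rat 16. For choroid plexus and meninges (1 of 4) it was 0.26, and 0.0499 without rat 16.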
